A study of Loxodonta africana with 12 samples.

Results

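The genes described here encode the lysosomal hydrolases, the main lysosomal membrane proteins, the transcription factor TFEB and the subunits of the vacuolar proton pump, in blood cells of the African elephant, Loxodonta africana. They were all rows of both deposited tables whose gene symbol starts with ATP6V or is one of 36 given lysosomal symbols. Of the 36, 32 had a row, and the cathepsins D and L, HEXA and IDS were not analysed here. With 19 ATP6V rows this gave 51 of 16406 genes. By role they are 11 rows of the V1 sector and 8 of the V0 sector of the pump, 7 proteases, 10 hydrolases of glycans, 7 lipid hydrolases and cofactors, 6 membrane proteins, 1 phosphatase and 1 transcription factor. RNA was sequenced from 4 groups of 3 libraries: cells irradiated with 2 Gy and untreated cells, each at 24 h and at 5 h. The series asks which genes differ between irradiated and untreated elephant cells. The labels give blood as the source and add nothing on age, sex or genotype, on how cells were isolated and cultured, or on whether the replicates came from separate animals, draws or cultures, so the spread behind each p-value is that of these libraries and could be purely technical.

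Lysosomes are acidic organelles that digest proteins, glycans and lipids taken up by endocytosis or delivered by autophagy. The proton pump, or V-ATPase, acidifies them: its cytosolic V1 sector hydrolyses ATP and its membrane V0 sector carries protons into the lumen. TFEB and its relative TFE3 are transcription factors that bind the promoters of many of these genes, and among blood cells the phagocytes (monocytes, macrophages and neutrophils) are known for their large lysosomal content. The activity of beta-galactosidase, the product of GLB1, is widely used as a stain for senescent cells.

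Library totals were 18022475 to 37356501 counts at 24 h and 31059389 to 38138163 counts at 5 h, and the 51 genes took 1.06% to 1.97% of the counts of a library. The factors of the trimmed mean of M-values (TMM) scaling were 1.1 to 1.32 at 24 h and 0.843 to 0.878 at 5 h, so the times differ in the make-up of the libraries. Levels below are CPM, counts relative to the TMM-scaled library total, for comparing a gene between libraries, and the authors' FPKM, a unit per transcript length, for comparing genes. The sources do not say whether the 5 h and 24 h libraries were prepared together, so time and any such batch cannot be told apart. Summed markers of T cells were 514.8 to 1022.6 CPM per library, of B cells 269.5 to 1351.9, of monocytes and macrophages 3793 to 7618.6 and of neutrophils 563.8 to 1786. Erythroid markers summed to at most 46.26 CPM and platelet markers to at most 168.5 CPM.

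At 24 h, 1 library of each group stood apart in these genes. The 51 genes summed to 17637 CPM in irradiated replicate 1, against 13348.8 and 13420.1 CPM in the other irradiated libraries, and to 15830 CPM in untreated replicate 2, against 11564.6 and 12349.4 CPM in the other untreated libraries. Irradiated replicate 1 was the highest of its group for 31 of 49 genes tested at 24 h, and untreated replicate 2 for 32 of 49. Monocyte and macrophage markers were also highest there, at 7618.6 CPM against 6662.5 and 6721.6 CPM among irradiated libraries and at 4625 CPM against 3793 and 4323 CPM among untreated ones. At 5 h replicate 3 was the lowest of both groups, with 12620.3 CPM against 13957.4 and 14468 CPM in irradiated cells and 13095.8 CPM against 14758.7 and 14817.8 CPM in untreated cells.

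**Figure D1:**
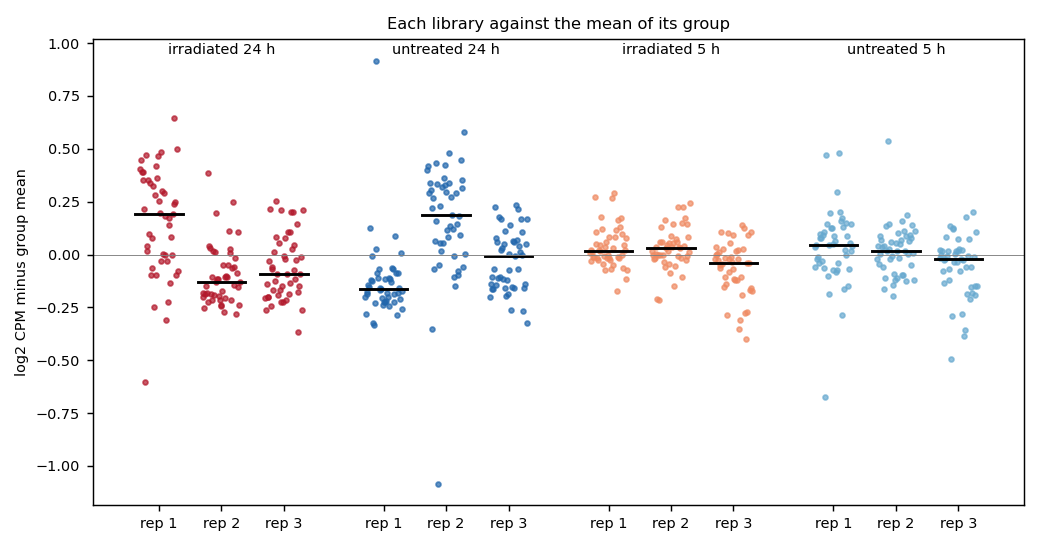
Deviation of each library from the mean of its group, as log2 CPM minus the group mean, with 1 point per lysosomal or pump gene, replicates 1 to 3 of each group along the x axis and a black line at the median. Irradiated replicate 1 and untreated replicate 2 at 24 h sit above 0 for most genes, and the 5 h libraries lie closer to 0.

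The genes spanned more than 4 powers of 10 in level. LAMP1, a heavily glycosylated protein that lines the lysosomal membrane, was the highest, at 2494.8 ± 202 FPKM in irradiated cells at 24 h, 2185.9 ± 68.2 FPKM in untreated cells at 24 h, 1711.6 ± 283 FPKM in irradiated cells at 5 h and 1705.5 ± 299 FPKM in untreated cells at 5 h (SD, n = 3 each). PSAP, the precursor of the saposins that help enzymes reach sphingolipids, was second by its mean over all libraries, at 1420 ± 196 FPKM in irradiated cells at 24 h, 1378.4 ± 223 FPKM in untreated cells at 24 h, 2262.4 ± 255 FPKM in irradiated cells at 5 h and 2521.4 ± 333 FPKM in untreated cells at 5 h. The order of these 2 differed between the times: at 24 h every library had more LAMP1 than PSAP, and at 5 h every library had more PSAP than LAMP1. The cysteine protease CTSB, the tetraspanin CD63 and the carboxypeptidase CTSZ followed, with means over all 12 libraries of 993, 984 and 794 FPKM. The 5 lowest were pump genes, ATP6V0D2, ATP6V1G3, ATP6V1C2, ATP6V0A4 and ATP6V1B1, with means of 0.436, 0.370, 0.229, 0.177 and 0.130 FPKM. The filter on low counts kept 47 to 50 of the 51 genes in a comparison. ATP6V1G3 was tested in none, ATP6V1B1 in the comparison of the irradiation effects alone, and ATP6V1C2 and ATP6V0A4 in some.

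Most of the enzymes were higher at 24 h than at 5 h, with and without irradiation, and 5 genes, among them the abundant PSAP and CD63, were lower. By edgeR's quasi-likelihood test at an adjusted p below 0.05, 27 of 47 tested genes were higher and 5 lower at 24 h than at 5 h in irradiated cells, where 65.9% of all tested genes were called, 35.3% higher and 30.6% lower. In untreated cells 29 of 48 were higher and 5 lower, where 63.1% of all tested genes were called, 32.6% higher and 30.5% lower. Without overlap between the times, 29 genes were higher and 7 lower in irradiated cells, where 34.3% and 36.2% of all tested genes were, and 27 were higher and 6 lower in untreated cells, where 33.5% and 34.4% were. The median log2 fold change was 0.66 in irradiated cells, against 0.10 over all genes, and 0.57 in untreated cells, against 0.11 over all genes. In bulk RNA fewer cells of a type and less RNA per cell cannot be told apart. The 2 time comparisons share no library, and 26 genes were higher in both, which is 96.3% of those called in irradiated cells and 89.7% of those called in untreated cells. All 5 lower genes, ATP6V0A1, PSAP, TFEB, CD63 and ATP6V1F, were lower in both.

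**Figure D2:**
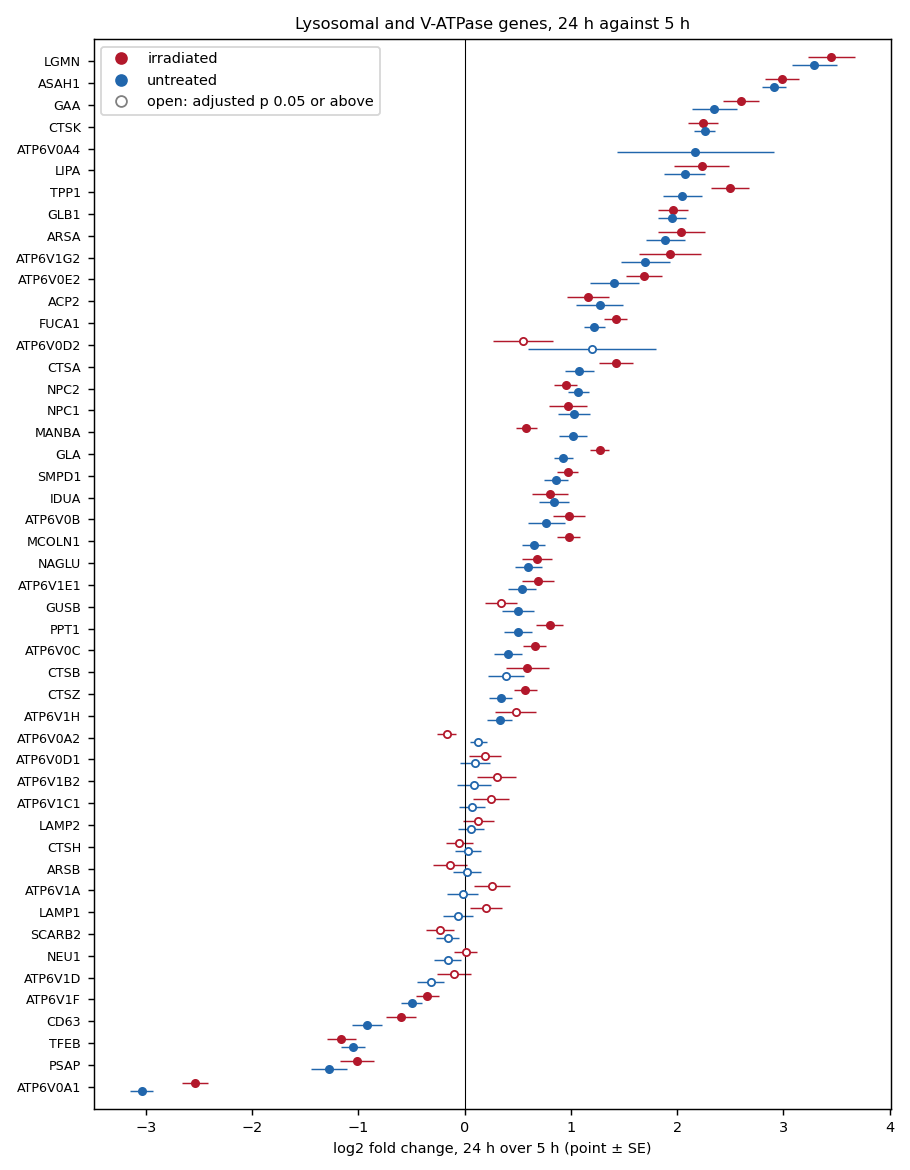
Log2 fold change of each tested lysosomal and pump gene at 24 h over 5 h, in irradiated (red) and untreated (blue) cells, as estimate ± SE, with filled points where the adjusted p was below 0.05. LGMN and ASAH1 lie furthest to the right and ATP6V0A1 furthest to the left in both.

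Among the proteases 6 of 7 were higher at 24 h in irradiated cells and 5 of 7 in untreated cells. LGMN (legumain, placed in the L_africana_Jul_2009 assembly, as all positions here, ENSLAFG00000025561, scaffold 9, 69544048 to 69575515, on the minus strand) is an endopeptidase that cuts after asparagine and activates some cathepsins. It had 1670.4, 989.9 and 1029.9 CPM in irradiated cells at 24 h, against 114.6, 124.7 and 121.5 at 5 h, and 844.2, 1374.3 and 820.2 CPM in untreated cells at 24 h, against 102.3, 116 and 106.7 at 5 h. Every library at 24 h was above every library at 5 h, and the log2 fold change was 3.45 ± 0.22 in irradiated cells (10.9-fold, adjusted p = 6.8e-06) and 3.29 ± 0.21 in untreated cells (9.77-fold, adjusted p = 5.5e-06), the largest rise among the 51 genes in both. CTSK, the collagen-degrading protease best known from osteoclasts, had 33.8, 26.2 and 29.1 CPM in irradiated cells at 24 h, against 7.08, 6.84 and 6.16 at 5 h, and 25.6, 30 and 27.7 CPM in untreated cells at 24 h, against 6.43, 5.60 and 6.16 at 5 h. Its groups did not overlap, and it rose by a log2 fold change of 2.24 ± 0.14 in irradiated and 2.26 ± 0.10 in untreated cells. TPP1, a tripeptidyl peptidase, rose by 2.50 ± 0.18 and 2.05 ± 0.18, and CTSA, the carboxypeptidase that protects beta-galactosidase and neuraminidase, by 1.42 ± 0.16 and 1.08 ± 0.14. The CTSA row overlaps that of PLTP on the other strand, and whether counting used strand is not given, so its value is uncertain.

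CTSB was among the genes that moved little, at 1539.6, 942.6 and 951.6 CPM in irradiated cells at 24 h, against 811.4, 764.8 and 868 at 5 h, and 925.7, 1462 and 959.3 CPM in untreated cells at 24 h, against 918, 816.8 and 934.2 at 5 h. It was called in irradiated cells (log2 fold change 0.59 ± 0.20, adjusted p = 0.027) and not in untreated cells (0.39 ± 0.17, adjusted p = 0.07), and the difference between these was not called (0.17 ± 0.29, adjusted p = 0.95). The call was lost without any 1 of the 3 irradiated libraries at 5 h or without irradiated replicate 1 at 24 h, with adjusted p up to 0.11. CTSZ rose by 0.57 ± 0.11 in irradiated cells and by 0.34 ± 0.11 in untreated cells, where the call was lost without any 1 of the 3 libraries at 5 h or without replicate 2 or 3 at 24 h (adjusted p up to 0.14). The aminopeptidase CTSH was at -0.05 ± 0.13 in irradiated and 0.03 ± 0.12 in untreated cells and was called in neither.

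The enzymes that remove sugars were higher for 7 of 10 genes in irradiated cells and 8 of 10 in untreated cells, with none lower. GAA, the acid alpha-glucosidase that breaks down glycogen, had 169.8, 157.7 and 183.1 CPM in irradiated cells at 24 h, against 36.1, 30.8 and 23.1 at 5 h, and 115.3, 155.2 and 142 CPM in untreated cells at 24 h, against 38.1, 25.6 and 20.9 at 5 h. This was a log2 fold change of 2.60 ± 0.17 in irradiated and 2.35 ± 0.21 in untreated cells, with no overlap between the times. GLB1 had 129.1, 98.2 and 92.6 CPM in irradiated cells at 24 h, against 28.3, 30.9 and 28.9 at 5 h, and 105.1, 137.3 and 101.7 CPM in untreated cells at 24 h, against 30.3, 32.6 and 30.6 at 5 h. Beta-galactosidase RNA was thus 3.88-fold higher in irradiated cells (log2 1.96 ± 0.14, adjusted p = 1.3e-05) and 3.85-fold higher in untreated cells (log2 1.95 ± 0.13, adjusted p = 6.2e-06), whereas irradiation itself gave -0.10 ± 0.17 at 24 h and -0.10 ± 0.07 at 5 h, neither called. FUCA1, which removes fucose, rose by 1.42 ± 0.11 and 1.22 ± 0.10, and the alpha-galactosidase GLA by 1.27 ± 0.09 and 0.93 ± 0.09 in irradiated and untreated cells. MANBA, IDUA and NAGLU were also called in both, between 0.58 and 1.02 on the log2 scale. The beta-glucuronidase GUSB was called in untreated cells alone (0.50 ± 0.15, lost without replicate 2 at 24 h, when adjusted p was 0.070), at 0.34 ± 0.15 in irradiated cells, and the difference was not called (adjusted p = 0.93). The sialidase NEU1 and the sulfatase ARSB lay within 0.16 of 0 on the log2 scale in both.

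**Figure D3:**
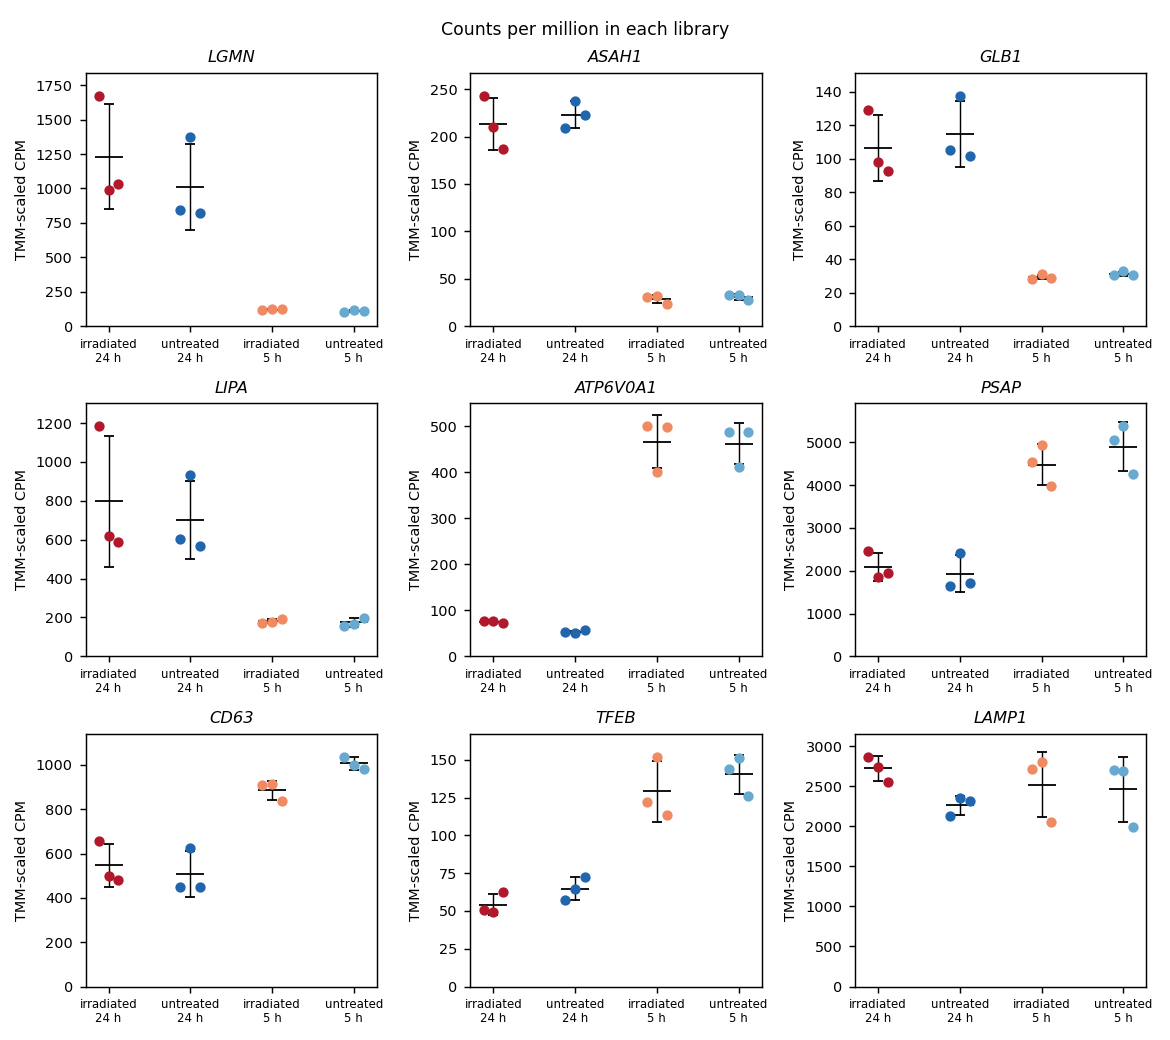
TMM-scaled CPM (y axes, from 0) of 9 genes in each library of the 4 groups, with points for libraries and a black mark for the mean ± SD of 3. LGMN, ASAH1, GLB1 and LIPA are higher at 24 h than at 5 h in every library, ATP6V0A1, PSAP, CD63 and TFEB lower, and LAMP1 overlaps between the times.

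Of the 7 lipid enzymes and cofactors, 6 were higher and 1 lower at 24 h in irradiated and in untreated cells. ASAH1, the acid ceramidase (ENSLAFG00000008771, scaffold 22, 38810112 to 38829496, on the minus strand), had 242.6, 210 and 187.3 CPM in irradiated cells at 24 h, against 30.5, 32.1 and 23.6 at 5 h, and 209.3, 237.5 and 222.3 CPM in untreated cells at 24 h, against 32.8, 33 and 27.2 at 5 h. Its log2 fold change was 2.99 ± 0.16 in irradiated cells (7.93-fold) and 2.91 ± 0.11 in untreated cells (7.54-fold). LIPA, the acid lipase that releases cholesterol and fatty acids from lipoproteins, had 1182.5, 620.7 and 586.2 CPM in irradiated cells at 24 h, against 172.9, 177.4 and 192.6 at 5 h, and 602, 932.2 and 567.7 CPM in untreated cells at 24 h, against 156.2, 167.4 and 199.1 at 5 h. It rose by 2.23 ± 0.26 and 2.07 ± 0.19. The sulfatide sulfatase ARSA rose by 2.04 ± 0.22 and 1.89 ± 0.18 from under 2 CPM at 5 h, and SMPD1, the acid sphingomyelinase, by 0.97 ± 0.10 and 0.86 ± 0.11. NPC2, which hands cholesterol to NPC1, rose by 0.95 ± 0.11 and 1.07 ± 0.10. The depalmitoylating enzyme PPT1 rose by 0.80 ± 0.13 and 0.50 ± 0.13, the second no longer called without untreated replicate 1 at 5 h (adjusted p = 0.064). The phosphatase ACP2 rose by 1.16 ± 0.20 and 1.27 ± 0.22.

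PSAP was the exception among them and had 2460.8, 1862.1 and 1941.8 CPM in irradiated cells at 24 h, against 4530.4, 4934.5 and 3966.6 at 5 h, and 1641.6, 2420.5 and 1721.9 CPM in untreated cells at 24 h, against 5051.9, 5369.3 and 4258.4 at 5 h. All 6 libraries at 24 h were below all 6 at 5 h, and the log2 fold change was -1.01 ± 0.16 in irradiated cells (adjusted p = 0.00063) and -1.28 ± 0.17 in untreated cells (adjusted p = 0.00027). The saposins it encodes serve several of the lipid enzymes that were higher. CD63, a tetraspanin of late endosomes and lysosomes, had 657.7, 499.6 and 482.4 CPM in irradiated cells at 24 h, against 907.6, 912.6 and 836.9 at 5 h, and 448.1, 625.2 and 447.9 CPM in untreated cells at 24 h, against 1037.4, 1001.5 and 981.4 at 5 h. It fell by 0.60 ± 0.14 on the log2 scale in irradiated and by 0.92 ± 0.14 in untreated cells, with no overlap between the times in either.

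LAMP1 and LAMP2, the proteins that line most of the lysosomal membrane, were not called under TMM scaling, and were called higher in both comparisons when counts were scaled by library totals alone. LAMP1 had 2869.2, 2745.7 and 2553.3 CPM in irradiated cells at 24 h, against 2713.3, 2798.1 and 2050.1 at 5 h, and 2125.8, 2347 and 2309.2 CPM in untreated cells at 24 h, against 2696.5, 2695.2 and 1996.5 at 5 h, with log2 fold changes of 0.20 ± 0.15 and -0.06 ± 0.14 in irradiated and untreated cells. Under library totals alone LAMP1 was at 0.55 (adjusted p = 0.011) and 0.36 (adjusted p = 0.045). LAMP2 was at 0.13 ± 0.15 and 0.06 ± 0.12 under TMM and at 0.46 (adjusted p = 0.017) and 0.48 (adjusted p = 0.0034) under library totals alone. SCARB2, the carrier of glucocerebrosidase, was at -0.23 ± 0.13 and -0.16 ± 0.11. The cholesterol exporter NPC1 rose by 0.97 ± 0.18 and 1.03 ± 0.15. MCOLN1, the lysosomal calcium channel, rose by 0.98 ± 0.11 and 0.65 ± 0.11, in a row that overlaps that of STXBP2 on the same strand, so reads of the overlap could belong to either.

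TFEB, the regulator whose targets include many of the enzymes above, moved the other way and had 50.9, 49.2 and 62.2 CPM in irradiated cells at 24 h, against 121.9, 152.1 and 113.8 at 5 h, and 57.2, 64.6 and 72.4 CPM in untreated cells at 24 h, against 144, 151.4 and 126.2 at 5 h. Every library at 24 h was below every library at 5 h, with log2 fold changes of -1.16 ± 0.14 in irradiated cells (adjusted p = 0.00015) and -1.05 ± 0.11 in untreated cells (adjusted p = 5.7e-05). TFE3, its relative, was also lower in both (-1.19 ± 0.09 and -1.60 ± 0.12). TFEB acts largely through its movement into the nucleus, which RNA levels do not measure.

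Of the proton pump genes 5 of 15 tested were higher and 2 lower at 24 h in irradiated cells, against 35.3% and 30.6% of all tested genes. In untreated cells 7 of 16 were higher and 2 lower, against 32.6% and 30.5% of all tested genes. The share of pump genes called higher in irradiated cells was thus near that of all genes. The V0 genes had the widest spread. ATP6V0A1 (ENSLAFG00000010631, scaffold 31, 24145048 to 24194937, on the plus strand), which encodes the a1 isoform of the large membrane subunit, had 75.8, 76.9 and 72 CPM in irradiated cells at 24 h, against 499.2, 399.2 and 498.8 at 5 h, and 53.1, 50.8 and 56.2 CPM in untreated cells at 24 h, against 486.3, 411.4 and 488.1 at 5 h. This was 5.82-fold lower at 24 h in irradiated cells (log2 -2.54 ± 0.12, adjusted p = 2.3e-06) and 8.24-fold lower in untreated cells (log2 -3.04 ± 0.11, adjusted p = 8.5e-07), the largest fall among the 51 genes in both.

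The other a isoforms did not follow. TCIRG1, which encodes the a3 isoform known from osteoclasts and phagocytes and is not named ATP6V in these tables, had 502.8, 483.3 and 617.6 CPM in irradiated cells at 24 h, against 308.2, 313.5 and 212.6 at 5 h, and 351.7, 496.9 and 495.7 CPM in untreated cells at 24 h, against 232.7, 200.3 and 137.3 at 5 h. It rose by 1.03 ± 0.17 in irradiated cells (adjusted p = 0.00088) and 1.30 ± 0.20 in untreated cells (adjusted p = 0.00057). ATP6V0A2, the a2 isoform, was at -0.17 ± 0.09 and 0.13 ± 0.08 and was called in neither. Per length, the a isoforms changed order between the times. ATP6V0A1 had 33.7 ± 2.53 FPKM in irradiated cells at 24 h, 25.4 ± 2.61 FPKM in untreated cells at 24 h, 155 ± 18.5 FPKM in irradiated cells at 5 h and 157 ± 12.3 FPKM in untreated cells at 5 h, and TCIRG1 had 244 ± 26 FPKM in irradiated cells at 24 h, 215 ± 24.7 FPKM in untreated cells at 24 h, 94.3 ± 19.5 FPKM in irradiated cells at 5 h and 65.8 ± 17.1 FPKM in untreated cells at 5 h (SD, n = 3 each). ATP6V0A2 had 54.6 ± 4.1 FPKM in irradiated cells at 24 h, 70 ± 1.36 FPKM in untreated cells at 24 h, 48.7 ± 2.08 FPKM in irradiated cells at 5 h and 48 ± 1.99 FPKM in untreated cells at 5 h. TCIRG1 was therefore the highest of these 3 and ATP6V0A1 the lowest in all 6 libraries at 24 h, whereas at 5 h ATP6V0A1 was the highest in all 6. ATP6V0A4, the a4 isoform known from kidney, stayed under 1.4 CPM in every library. It was called higher in untreated cells (2.17 ± 0.74, adjusted p = 0.03), a call lost without any 1 of the libraries at 5 h or without replicate 1 at 24 h (adjusted p up to 0.11), and was not tested in irradiated cells.

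**Figure D4:**
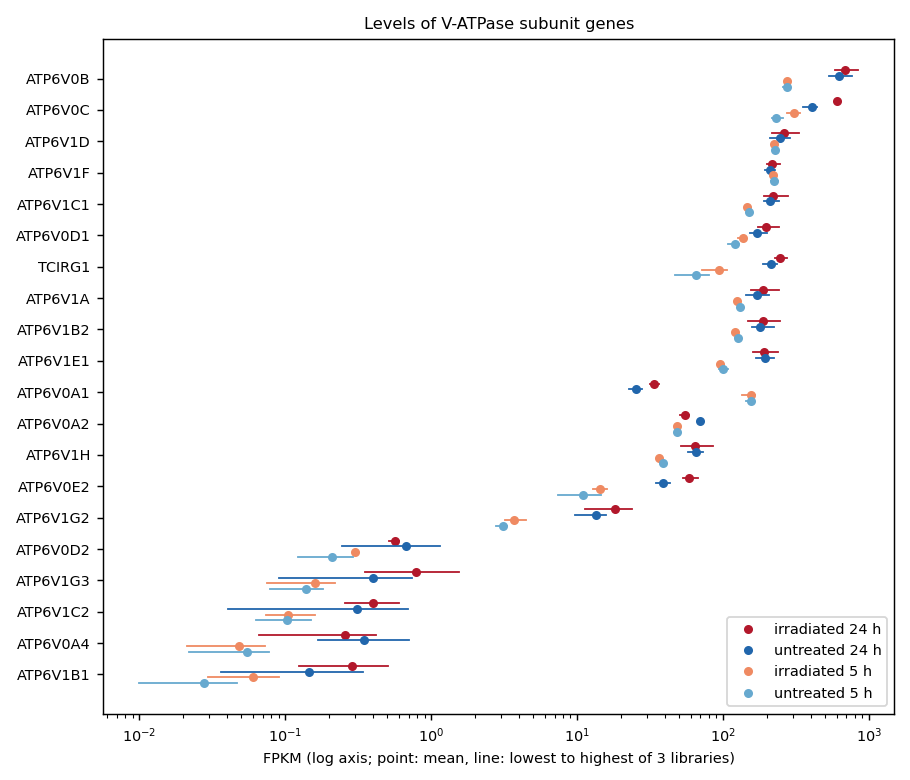
FPKM of the V-ATPase subunit genes on a log axis, with a point for the mean and a line from the lowest to the highest of 3 libraries in each group. ATP6V0A1 lies lower and TCIRG1 higher at 24 h than at 5 h, and the 5 lowest genes stay under 2 FPKM.

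Among the other V0 genes, ATP6V0B and ATP6V0C encode the proteolipids of the rotating ring. ATP6V0B rose by 0.98 ± 0.15 in irradiated and 0.77 ± 0.17 in untreated cells. ATP6V0C rose by 0.66 ± 0.11 and 0.41 ± 0.13, and in untreated cells its groups overlapped and the call was lost without replicate 1 or 3 at 5 h or replicate 2 or 3 at 24 h, with adjusted p up to 0.12. The small e subunit gene ATP6V0E2 rose by 1.69 ± 0.17 and 1.41 ± 0.23. Both genes for the d subunit were not called: ATP6V0D1 was at 0.19 ± 0.15 and 0.10 ± 0.14, and ATP6V0D2, the form of osteoclasts and some macrophages, at 0.55 ± 0.28 and 1.20 ± 0.60, with every library under 1 CPM.

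In the V1 sector, ATP6V1A, the catalytic subunit that binds ATP, had 399.2, 261.9 and 261.7 CPM in irradiated cells at 24 h, against 276, 277.6 and 270.7 at 5 h, and 225.5, 342.4 and 225.6 CPM in untreated cells at 24 h, against 287.4, 276.6 and 277.2 at 5 h. Its groups overlapped and it was not called (0.26 ± 0.17 and -0.02 ± 0.15), although without untreated replicate 2 at 24 h it fell by 0.28 in untreated cells (adjusted p = 0.022). ATP6V1B2, ATP6V1C1 and ATP6V1D were called in neither. The stalk subunit ATP6V1E1 rose by 0.69 ± 0.15 and 0.54 ± 0.13. ATP6V1G2, a form known mainly from neurons, rose by 1.93 ± 0.29 and 1.70 ± 0.23, at no more than 7.01 CPM. ATP6V1H, the regulatory subunit, was called in untreated cells alone (0.33 ± 0.12, with 0.48 ± 0.19 in irradiated cells), and the difference was not called (adjusted p = 0.96). Its call was lost without any 1 of the libraries at 5 h or without replicate 1 or 2 at 24 h, with adjusted p up to 0.17. ATP6V1F fell by 0.35 ± 0.11 in irradiated and by 0.50 ± 0.10 in untreated cells. The fall in irradiated cells was no longer called without replicate 2 at 24 h (adjusted p = 0.061), and scaled by library totals alone ATP6V1F was at -0.02 and -0.09, neither called.

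That scaling shifted all genes upward at 24 h: the median over all genes was 0.44 in irradiated and 0.52 in untreated cells, and that of the lysosomal genes 1 and 0.99. Relative to the median of all genes the lysosomal genes stood 0.55 and 0.46 higher under it, against 0.56 and 0.46 under TMM. ATP6V1A was then called higher in both, at 0.59 (adjusted p = 0.0095) in irradiated and 0.39 (adjusted p = 0.030) in untreated cells, and so was ATP6V0D2, at 0.89 (adjusted p = 0.025) and 1.63 (adjusted p = 0.043). CTSB was called higher in untreated cells too, at 0.80 (adjusted p = 0.0014). CD63 in irradiated cells was at -0.27 and not called (adjusted p = 0.11), while PSAP, TFEB and ATP6V0A1 stayed lower and called in both. Without irradiated replicate 1 at 24 h, 27 genes were higher and 8 lower in irradiated cells. Without untreated replicate 2 at 24 h, 26 were higher and 8 lower in untreated cells.

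Of 27 tested hydrolases and cofactors outside the set, 20 were higher and 2 lower at 24 h in irradiated cells and likewise in untreated cells. Of all tested genes 35.3% were higher and 30.6% lower in irradiated cells, and 32.6% and 30.5% in untreated cells. GM2A, the activator protein that presents GM2 ganglioside to hexosaminidase, rose by 3.26 ± 0.13 and 3.78 ± 0.11, the endonuclease DNASE2 by 2.49 ± 0.14 and 2.34 ± 0.16, and HGSNAT, which acetylates heparan sulfate, by 1.91 ± 0.09 and 1.83 ± 0.08. The prolylcarboxypeptidase PRCP fell by 3.53 ± 0.24 and by 2.62 ± 0.17. Of 27 other membrane proteins 11 were higher and 4 lower in irradiated and 13 higher and 5 lower in untreated cells. Their shares called higher lay nearer to those of all genes than the shares of the hydrolases did. Of 12 further pump genes (isoforms, accessory and assembly factors) 7 were higher and 1 lower in irradiated and 9 higher and 0 lower in untreated cells, among them ROGDI (2.73 ± 0.16 and 2.56 ± 0.16).

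Of 8 genes that tag or carry lysosomal enzymes, 3 were higher and 1 lower in both, and the share called higher was near that of all tested genes (35.3% in irradiated and 32.6% in untreated cells): GNPTAB, which makes the mannose 6-phosphate tag, rose by 0.80 ± 0.12 and 0.70 ± 0.12 and the receptor SORT1 by 1.83 ± 0.13 and 1.45 ± 0.15, whereas the receptor M6PR fell by 0.59 ± 0.13 and by 0.58 ± 0.11. Under library totals alone M6PR in untreated cells was at -0.16 and not called (adjusted p = 0.14). A list of 16 regulators held genes that act at the lysosomal surface or upstream of TFEB, and the TFEB relatives TFE3, MITF and TFEC. Of these, 5 were higher and 7 lower in irradiated cells and 4 higher and 7 lower in untreated cells. LAMTOR2, part of the complex that anchors mTORC1 signalling to lysosomes, rose by 2.22 ± 0.14 and 1.99 ± 0.10, while LAMTOR3 of the same complex was lower (-1.17 ± 0.18 and -1.26 ± 0.15).

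Blood cell markers were compared over the same interval. Of all tested genes 65.9% were called in irradiated cells, 35.3% higher and 30.6% lower. In untreated cells 63.1% were called, 32.6% higher and 30.5% lower. In irradiated cells the share called was near that of all genes for monocyte and macrophage markers. It was below it for T cell markers and for natural killer and cytotoxic markers. Of 15 tested monocyte and macrophage markers 6 were higher and 3 lower in irradiated cells (median 0.33) and 6 higher and 5 lower in untreated cells (median -0.12). Their sum was 6662.5 to 7618.6 CPM in irradiated cells at 24 h, against 4823.2 to 5867 at 5 h. In untreated cells it was 3793 to 4625 CPM at 24 h, against 4151.3 to 5011.5 at 5 h. Much of the sum was ITGAM, with means of 3079.4 CPM at 24 h and 1564.1 CPM at 5 h in irradiated cells. Its means in untreated cells were 1225.9 and 863.9 CPM. The log2 fold change was positive for 11 of the 15 markers in irradiated and for 7 in untreated cells. APOE, a lipid carrier of macrophages, rose by 4.18 ± 0.15 and 4.05 ± 0.19, and CD86 fell by 2.50 ± 0.21 and by 2.85 ± 0.27. Neutrophil markers summed to 822.6 to 954.3 CPM in irradiated cells at 24 h, against 1517.9 to 1786 at 5 h, and 563.8 to 782.7 CPM in untreated cells at 24 h, against 1372 to 1632.5 at 5 h. Of 14 B cell markers 1 was higher and 12 lower in irradiated cells (median -1.95), and 5 were higher and 0 lower in untreated cells (median 0.30). Of 20 T cell markers 6 were higher and 3 lower in irradiated cells, and 11 were higher and 0 lower in untreated cells. Of 11 natural killer and cytotoxic markers 3 were higher and 2 lower in irradiated cells, and 7 were higher and 0 lower in untreated cells. Of 9 dendritic cell markers 4 were higher and 4 lower in irradiated cells, and 4 were higher and 2 lower in untreated cells. Of 7 tested genes typical of osteoclasts, 1 was higher and 4 lower in both. No marker with a row was at 0 in all 12 libraries, and the part of these shifts in the lysosomal values was not tested.

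At 24 h, 3 of 49 tested genes were higher and 1 lower in irradiated than in untreated cells at an adjusted p below 0.05, where 6.73% of all tested genes were called, 1.8% higher and 4.94% lower. The share of these genes called was near that of all genes. The 3 higher genes, ATP6V0E2, ATP6V0C and ATP6V0A1, encode V0 subunits. Another V0 gene, ATP6V0A2, lay lower without overlap, at 125.9, 124.9 and 116.7 CPM in irradiated cells, against 136.3, 155.4 and 155 CPM in untreated cells, and was not called (-0.28 ± 0.09, adjusted p = 0.12). The median log2 fold change was 0.13, against 0.01 over all genes, and it was -0.01 without irradiated replicate 1 and 0.28 without untreated replicate 2, the libraries that stood apart. Without overlap between the groups, 7 genes were higher and 2 lower, where 8.7% and 16.7% of all genes were.

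MANBA, the beta-mannosidase that removes the last mannose of N-glycan fragments (ENSLAFG00000009347, scaffold 14, 9668806 to 9781103, on the minus strand), had 50.8, 52.2 and 52.8 CPM in irradiated cells, against 79, 82.2 and 86.7 CPM in untreated cells at 24 h. All irradiated libraries were below all untreated ones, and it fell by 0.67 ± 0.08 on the log2 scale (adjusted p = 0.0047). The call was kept without any 1 library and without both libraries that stood apart (-0.66, adjusted p = 0.012). MANBA was higher at 24 h than at 5 h in both (0.58 ± 0.10 in irradiated and 1.02 ± 0.13 in untreated cells). The difference between the irradiation effects at 24 h and 5 h was not called (-0.45 ± 0.16, adjusted p = 0.32).

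ATP6V0A1 had 75.8, 76.9 and 72 CPM in irradiated cells, against 53.1, 50.8 and 56.2 CPM in untreated cells at 24 h, with no overlap and a log2 fold change of 0.49 ± 0.09 (adjusted p = 0.023). The difference between the irradiation effects at 24 h and 5 h was not called (0.49 ± 0.15, adjusted p = 0.21). ATP6V0C (ENSLAFG00000015954, scaffold 53, 13524837 to 13530110, on the minus strand) had 265.2, 230.5 and 250.4 CPM in irradiated cells, against 123.6, 174 and 176.1 CPM in untreated cells, a log2 fold change of 0.66 ± 0.13 (adjusted p = 0.033). ATP6V0E2 had 12, 11 and 14.9 CPM in irradiated cells, against 8.04, 7.63 and 8.02 CPM in untreated cells, a log2 fold change of 0.67 ± 0.14 (adjusted p = 0.033). Neither gene's groups overlapped. These 3 calls were fragile: leaving out any 1 of the 6 libraries ended that of ATP6V0C (adjusted p 0.061 to 0.11), and leaving out any 1 but irradiated replicate 1 ended those of ATP6V0A1 and ATP6V0E2 (adjusted p up to 0.12 for each). Without both libraries that stood apart, ATP6V0A1 was called (0.44, adjusted p = 0.036) and ATP6V0C (0.68, adjusted p = 0.053) and ATP6V0E2 (0.68, adjusted p = 0.069) were not. Scaled by library totals alone, 1 of the genes tested was higher and 2 were lower.

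**Figure D5:**
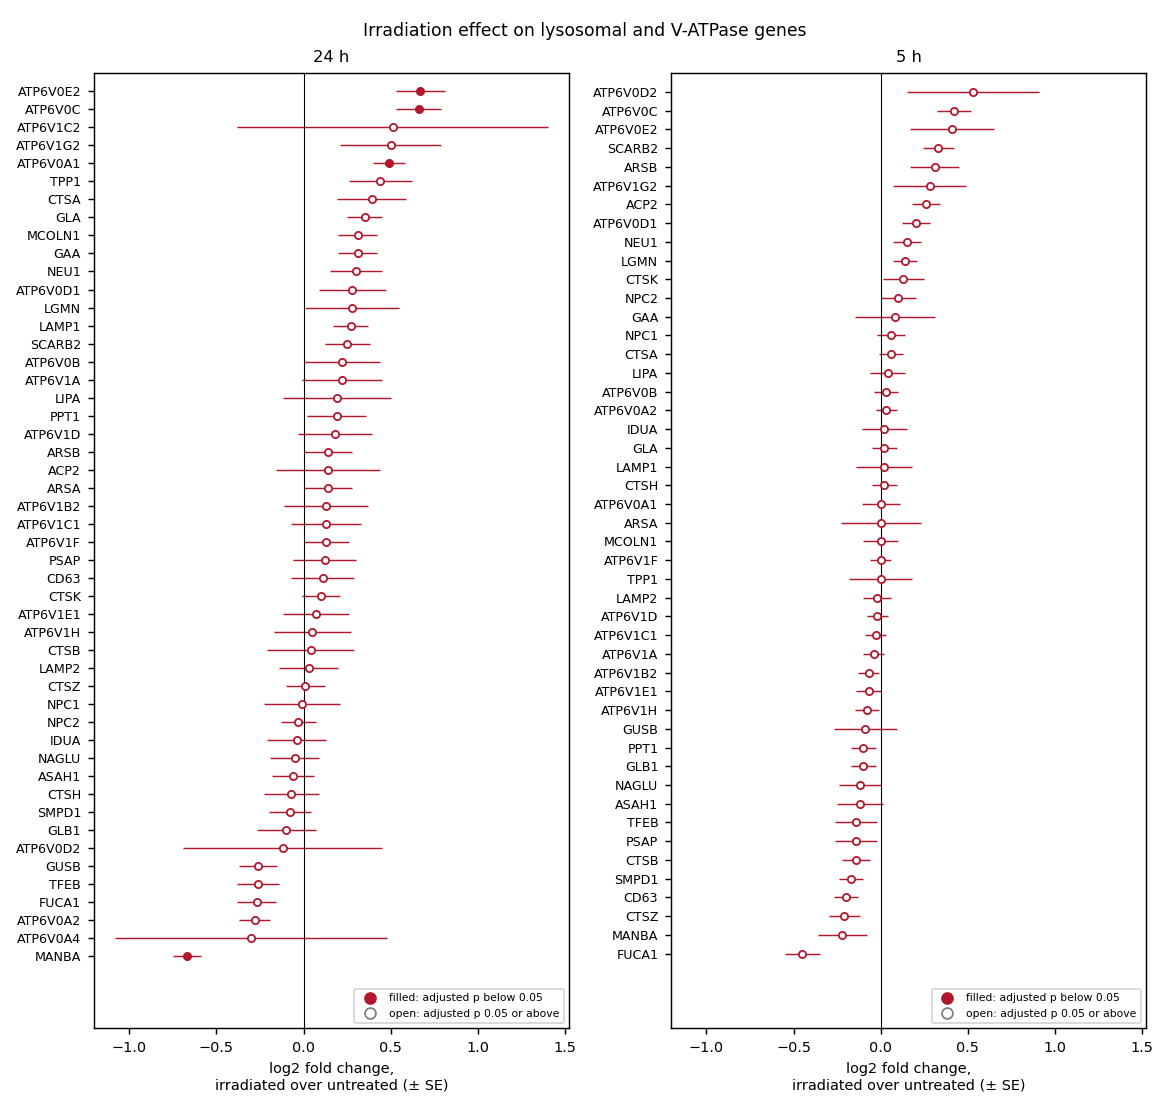
Log2 fold change of irradiated over untreated cells for each tested lysosomal and pump gene at 24 h (left) and 5 h (right), as estimate ± SE, sorted within each panel, with filled points where the adjusted p was below 0.05. At 24 h ATP6V0E2, ATP6V0C, ATP6V0A1 and MANBA are filled, and at 5 h no point is.

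The remaining genes were not called at 24 h. LAMP1 had 2869.2, 2745.7 and 2553.3 CPM in irradiated cells, against 2125.8, 2347 and 2309.2 CPM in untreated cells, without overlap (0.27 ± 0.10, adjusted p = 0.17). LAMP2 was at 0.03 ± 0.17, CTSB at 0.04 ± 0.25, CTSK at 0.10 ± 0.11, NPC1 at -0.01 ± 0.22, CD63 at 0.11 ± 0.18 and ATP6V1A at 0.22 ± 0.23. MCOLN1 was at 0.31 ± 0.11 (adjusted p = 0.15), TFEB at -0.26 ± 0.12 (adjusted p = 0.25) and ATP6V0D2 at -0.12 ± 0.57. LGMN, which rose most over time, was at 0.28 ± 0.27, with irradiated libraries on both sides of the highest untreated one.

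Larger differences at 24 h were found among lysosomal genes outside the set. CPVL, a carboxypeptidase found in macrophages, had 4.43, 8.55 and 8.34 CPM in irradiated cells, against 57.5, 77 and 55.7 CPM in untreated cells, a log2 fold change of -3.16 ± 0.26 (adjusted p = 0.0013). The carboxypeptidase PRCP had 11, 18.4 and 17 CPM in irradiated cells, against 33.4, 41.1 and 36.7 CPM in untreated cells (-1.26 ± 0.19, adjusted p = 0.012). They were the 2 called of 27 other hydrolases. MCOLN2 and MCOLN3, cation channels related to MCOLN1, were lower, with log2 fold changes of -1.15 ± 0.15 and -3.03 ± 0.46. MCOLN3 was at low levels, with 0.939, 0.397 and 0.301 CPM in irradiated cells, against 4.74, 6.11 and 3.08 CPM in untreated cells. CD68, a glycoprotein of phagocyte lysosomes that is also on the monocyte marker list, was higher (0.66 ± 0.13). Of 27 other membrane proteins 2 were higher and 3 lower, where 1.8% of all tested genes were higher and 4.94% lower. Of 12 further pump genes 3 were lower, led by NCOA7, which binds the V-ATPase (-0.97 ± 0.08), and TCIRG1 was not called (0.26 ± 0.15, adjusted p = 0.38). The MCOLN3 call was lost without irradiated replicate 2 (adjusted p = 0.061), and that of CD68 without irradiated replicate 1 or 2 or untreated replicate 1 or 3 (adjusted p up to 0.13). No sorting gene of 8 was called, with 2 at an unadjusted p below 0.05, a share near the 21.5% of all tested genes. Of 16 regulators 1, RRAGB, was lower (-0.46 ± 0.10). Leaving out any 1 of the 6 libraries ended the RRAGB call (adjusted p 0.054 to 0.13), as did leaving out both libraries that stood apart (adjusted p = 0.067). Of the other pump calls, VMA21 (-0.83 ± 0.19) was lost without any 1 library except irradiated replicate 1 (adjusted p up to 0.15), and DMXL1 (-0.66 ± 0.09) without irradiated replicate 2 or untreated replicate 3 (adjusted p up to 0.054).

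Marker lists differed between irradiated and untreated cells at 24 h, where 6.73% of all tested genes were called, 1.8% higher and 4.94% lower. Monocyte and macrophage markers summed to 6662.5 to 7618.6 CPM in irradiated cells at 24 h, against 3793 to 4625 CPM in untreated cells, with 4 of 16 higher and 1 lower (median log2 fold change 0.49). Much of this sum was ITGAM, with means of 3079.4 CPM in irradiated and 1225.9 CPM in untreated cells. CSF1R was at 1404.8 and 1397.4 CPM, and APOE, C1QA and C1QC had lower means in irradiated cells. The log2 fold change was positive for 11 of the 16 markers. Neutrophil markers summed to 822.6 to 954.3 CPM in irradiated cells, against 563.8 to 782.7 CPM in untreated cells, with 2 of 16 higher and 1 lower. B cell markers summed to 269.5 to 688.8 CPM in irradiated cells, against 833.1 to 1351.9 CPM in untreated cells, with 11 of 13 lower. Of 20 T cell markers 5 were lower, of 11 natural killer and cytotoxic markers 6, and of 9 dendritic cell markers 4, while 3 of 9 platelet markers were higher. Their part in the lysosomal values was not tested.

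At 5 h no lysosomal or pump gene was called by edgeR, where 1.6% of all tested genes were, 1.12% higher and 0.478% lower. Of 47 tested, 8 had an unadjusted p below 0.05, where 12.9% of all genes did, and DESeq2 called 1 higher and 1 lower, where it called 3.42% of all genes. The median log2 fold change was 0.00, as over all genes. Without overlap between the groups, 6 genes were higher and 3 lower, where 10.5% and 8.32% of all genes were. Libraries with the same replicate number deviated together at 5 h, and with the number as a block 7 genes were called higher and 8 lower, where 20.5% of all tested genes were called, 10.6% higher and 9.92% lower.

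The smallest blocked p was that of ATP6V0C, which had 170.1, 183.4 and 150.8 CPM in irradiated cells, against 118.3, 135.8 and 118.1 CPM in untreated cells at 5 h, without overlap. Its log2 fold change was 0.42 ± 0.10 (adjusted p = 0.089, and 5.1e-06 with the block). Of the genes tested at both times it was the 1 whose irradiated libraries were above all untreated ones at both times. FUCA1 had 28.2, 26.5 and 31.2 CPM in irradiated cells, against 34.5, 41.1 and 40.7 CPM in untreated cells, without overlap, at -0.45 ± 0.10 (adjusted p = 0.092, and 0.00019 with the block). CD63 had 907.6, 912.6 and 836.9 CPM in irradiated cells, against 1037.4, 1001.5 and 981.4 CPM in untreated cells, at -0.20 ± 0.07 (adjusted p = 0.28, and 0.0012 with the block). These differences are small beside those over time for FUCA1 and CD63.

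With the block, ATP6V0D1, SCARB2, LGMN, NEU1, ARSB and ACP2 were also called higher, at log2 fold changes of 0.14 to 0.33 (blocked adjusted p 0.0019 to 0.039). CTSB, CTSZ, MANBA, SMPD1, PSAP and TFEB were called lower, at -0.22 to -0.14 (blocked adjusted p 0.0019 to 0.049). LAMP1, LAMP2, CTSK, GLB1, NPC1, MCOLN1, ATP6V1A and ATP6V0D2 were called neither with nor without the block. Outside the set, the carboxypeptidase SCPEP1 had 303.5, 282.6 and 272.3 CPM in irradiated cells, against 192.1, 159.3 and 160.4 CPM in untreated cells, and rose by 0.73 ± 0.09 (adjusted p = 0.0072), no longer called without irradiated replicate 1 (adjusted p = 0.051). MCOLN3 had 0.701, 1.13 and 1.34 CPM in irradiated cells, against 3.05, 3.26 and 3.23 CPM in untreated cells. It fell, with a log2 fold change of -1.60 ± 0.23, a call lost without irradiated replicate 2 or any 1 of the untreated libraries (adjusted p up to 0.074). Monocyte and macrophage markers summed to 4823.2 to 5867 CPM in irradiated cells, against 4151.3 to 5011.5 CPM in untreated cells, and 1 of 15 was called higher. Among them ITGAM had means of 1564.1 CPM in irradiated and 863.9 CPM in untreated cells, and CSF1R of 1212.5 and 1396.2 CPM. The log2 fold change was positive for 8 of the 15. Of 9 dendritic cell markers 3 were lower, of 14 B cell markers 1 was lower and of 14 neutrophil markers 1 was higher. Of all tested genes 1.12% were higher and 0.478% lower. No marker of 20 of T cells or of 11 of natural killer and cytotoxic cells was called by edgeR. At an unadjusted p below 0.05 were 2 and 4 of them, and 12.9% of all tested genes. With the block, as for the lysosomal genes above, 10.6% of all tested genes were higher and 9.92% lower. Of the markers, 6 of monocytes and macrophages were higher and 3 lower with it. Also lower were 11 B cell, 10 T cell, 7 natural killer and cytotoxic and 7 dendritic cell markers, with none of these 4 lists higher. Their part in the lysosomal values was not tested.

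The irradiation effect at 24 h was set against that at 5 h over all 12 libraries. No lysosomal or pump gene of 50 tested differed by edgeR or by DESeq2, where 0.882% of all tested genes were called by edgeR, 0.125% higher and 0.757% lower, and 4 had an unadjusted p below 0.05, where 9.95% of all genes did. DESeq2 called 3.03% of all genes. The median difference was 0.14, against -0.01 over all genes, and -0.02 without irradiated replicate 1 and 0.24 without untreated replicate 2 at 24 h. ATP6V0A1 was at 0.49 ± 0.15 and MANBA at -0.45 ± 0.16. The 24 h calls of ATP6V0C and ATP6V0E2 were likewise not shown to differ from 5 h (0.23 ± 0.18 and 0.27 ± 0.29). These values also give the difference between the time effects in irradiated and untreated cells, so the rises of LGMN (0.14 ± 0.30), ASAH1 (0.06 ± 0.19) and GLB1 (-0.01 ± 0.19) were not shown to depend on irradiation.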

How the data were processed

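Stranded Illumina libraries were made from ribosome-depleted total RNA, per the labels' protocols. The authors deposited raw counts per gene and library, per the file headers, in 1 table per time point, with FPKM values beside them, which were used only for levels between genes. Coordinates are in scaffolds of the assembly that the file headers call L_africana_Jul_2009. Aligner, counting program and use of strand: not given in the sources used here. No sequence is shown because none was used.

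Counts were tested with edgeR 4.0.16 in R 4.3.3: the filterByExpr filter, TMM scaling, the F test of its quasi-likelihood fit, and p-values adjusted by Benjamini-Hochberg over all genes tested, at 0.05. Each pair of groups was fitted on its 6 libraries, and the difference of the irradiation effects on all 12. SE was derived from the F statistic. "Called" means an adjusted p below 0.05. Named are all members called in a comparison (beyond 12, the 8 largest rises and 8 largest falls), LAMP1, LAMP2, CTSB, CTSK, GLB1, NPC1, MCOLN1, TFEB, CD63, ATP6V1A and ATP6V0D2, and the 3 genes of smallest p per list. Other members and list genes were added after their values were seen. The members and lists were chosen with earlier results of these data known. Replicate numbers paired the libraries at 5 h, where deviations of same-numbered libraries correlated at 0.60, 0.61 and 0.77 over 11799 genes, and in no other comparison. No library pair shared equal counts for more than 4.02% of genes. The scripts were tested on simulated data. Alternatives were other scalings, filters, DESeq2 1.42.0, the block and leaving out each library. Leaving out both 24 h libraries that stand apart was chosen after seeing the data.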

Additional observations from a re-analysis of the deposited data

Results flagged for a closer look

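The irradiation effect on CPVL, a carboxypeptidase outside the set of 51 genes, differed between the times by edgeR's interaction term: -2.03 ± 0.42 on the log2 scale (adjusted p = 0.043). CPVL had 4.43, 8.55 and 8.34 CPM in irradiated cells, against 57.5, 77 and 55.7 CPM in untreated cells at 24 h (-3.16 ± 0.26, adjusted p = 0.0013). It had 18.5, 17 and 35.8 CPM in irradiated cells, against 42, 51.6 and 61.9 CPM in untreated cells at 5 h (-1.13 ± 0.28, adjusted p = 0.13). The interaction was no longer called in 10 of the 12 fits that each left out 1 library, all except those without irradiated replicate 1 or 2 at 5 h (-1.62 to -2.22, adjusted p 0.041 to 0.13), or without both libraries that stood apart (-1.64, adjusted p = 0.093).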

How the results depend on the processing

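For irradiated against untreated cells at 24 h, 4 genes of the set were called. DESeq2 called 7 (where it called 12.2% of all genes), and 1 was called with the replicate block (4.92% of all tested genes). That block pairs libraries by number, and deviations of same-numbered libraries correlated at -0.13, -0.55 and 0.81 there. The highest correlation between an irradiated and an untreated library of unlike number was 0.79. A pairing under other numbers was not tested. Leaving out 1 library gave 1 to 3 calls. At 5 h, where the numbers pair the libraries, the count of calls was 0, with 2 by DESeq2 and 15 with the replicate block. Scaled by library totals alone, LAMP1 and ATP6V1A in untreated cells at 24 h over 5 h turned to 0.36 (adjusted p = 0.045) and 0.39 (adjusted p = 0.030), a scaling that moved the median of all genes by the shift given above. The other calls gained or lost with it over time stand in the report. The number of genes called over time, both directions together, stayed within 1.5 times of that reported under each setting run, while the number lower, 5 in each comparison, ran between 3 and 8. The count for the difference of the irradiation effects was 0 throughout. The replicate block changed the count of calls in no other comparison by over 1.5 times. Of the values of single genes and lists, 2580 kept their side of the threshold or, for counts, stayed within 1.5 times. Another 101 lost and 52 gained a call, 18 counts moved and 2 turned sign as called values. Values called in neither fit could turn sign and still be among the 2580. LAMP2 in irradiated against untreated cells at 24 h did so, at 0.03 and at -0.16 to 0.15 without 1 library. The causes were not tested. ATP6V0D2, under 1 CPM in every library, had standard errors of 0.28 and 0.60 over time, which limits what could be detected at that depth.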
